A study of Mus musculus with 18 samples.

Results

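Replication-dependent histone genes encode the bulk of the histones that package newly made DNA. Members were taken by name, as every gene whose name in the deposited tables began with Hist1h, Hist2h, Hist3h or Hist4h. There were 47 such genes among the 40327 genes of the 129 tables and 45 among the 39147 genes of the Cast tables, on chromosomes 3, 11 and 13. Together they carried 57 names, of which 35 stood in both strains' tables, 12 in the 129 tables only and 10 in the Cast tables only. By class, the 57 names were 6 of linker histone H1, 12 of H2A, 17 of H2B, 10 of H3 and 12 of H4.

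The RNA came from CD23+ B cells of the spleen of female mice that were F1 129S1/Cast; Xist+/-, a first-generation hybrid of the 129S1 and Cast strains with 1 copy of Xist mutated. Per the labels, all 6 samples shared this genotype, with the Cast X chromosome as the inactive one in each. A naive group of 3 samples received no treatment, and a stimulated group of 3 samples was treated in vitro with 1 µM CpG, a bacterial-type DNA that a Toll-like receptor of B cells senses, and collected after 24 h. Age, and whether animals were pooled, are not given in the sources used here, and p-values measure the spread between these samples.

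In a cell that copies its DNA, these genes are switched on together at the start of S phase. Their mRNAs are made without a poly(A) tail and end instead just after a short hairpin, the histone stem-loop, which the protein encoded by Slbp binds to process, protect and translate the message. Some of the same genes can also give longer, polyadenylated transcripts in cells that have stopped dividing. The libraries were made from total RNA with a stranded total RNA kit, per the labels.

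The stem-loop is shown for genes that the results turn on, because it is the mark that sets these mRNAs apart. Each stretch of 30 bases is the transcript strand of GRCm38 (GENCODE M21 annotation), with the 16 bases of the stem-loop in capitals. It lies within an annotated transcript of the gene, which for some genes runs on past it. The deposited counts were made on the strains' own annotations, so these are reference sequences and not those of the 129 or Cast alleles.
Hist1h1c, chr13:23739505-23739534, plus strand: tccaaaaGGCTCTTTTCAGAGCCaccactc
Hist1h1e, chr13:23621775-23621804, minus strand: acccaaaGGCTCTTTTCAGAGCCacccaca
Hist3h2a, chr11:58955165-58955194, plus strand: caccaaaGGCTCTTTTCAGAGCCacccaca
Hist1h2ab, chr13:23751565-23751594, plus strand: aaacaaaGGCTCTTTTCAGAGCCacccaca
Hist1h2bb, chr13:23747196-23747225, plus strand: acccaaaGGCTCTTTTAAGAGCCacccaca
Hist1h2be, chr13:23585524-23585553, minus strand: aaccaaaGGCTCTTTTCAGAGCCacccaac
Hist1h3g, chr13:23535882-23535911, plus strand: ctttaaaGGCTCTTCTTAGAGCCacccatc
Hist1h4j, chr13:21735430-21735459, plus strand: ccctaaaGGTCCTTTTCAGGACCaccacat
Hist2h4, chr3:96262932-96262961, minus strand: ccctaacGGCCCTTTTTAGGGCCaaccaca

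A stem-loop of this form was found in an annotated transcript of 39 of the 57 members, against 86 of all 55450 annotated genes (0.155%). Among the annotated genes other than members it was found in 47 of 55393 (0.0848%). These were not sorted by kind, so histone genes whose names are absent from the strains' tables may be among them. The form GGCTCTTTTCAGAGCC stood in 23 members of classes H1, H2A, H2B and H3 and in 0 H4 genes. The form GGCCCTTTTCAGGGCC stood in 6 members, all H4. Hist1h4b and Hist1h4j shared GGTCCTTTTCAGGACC, and Hist1h4i and Hist2h4 shared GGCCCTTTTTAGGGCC. For the other 18 members, among them Hist1h1a and Hist1h1b, these letters were not in an annotated transcript.

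The 3 stretches below are the 150 bases before the start of transcription that RefSeq gives (GRCm38.p6), for the H2B and H1 genes with large rises and for the H1 gene that did not pass the test. Capitals mark the motifs searched on both strands: the octamer ATTTGCAT, the CCAAT box, the TATA box TATAAA and the H1 box AAACACA.
Hist1h2bb, chr13:23746584-23746733, plus strand: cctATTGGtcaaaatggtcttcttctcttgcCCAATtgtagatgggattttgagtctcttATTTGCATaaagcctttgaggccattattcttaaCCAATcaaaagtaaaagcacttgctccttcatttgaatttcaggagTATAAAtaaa
Hist1h1a, chr13:23763518-23763667, plus strand: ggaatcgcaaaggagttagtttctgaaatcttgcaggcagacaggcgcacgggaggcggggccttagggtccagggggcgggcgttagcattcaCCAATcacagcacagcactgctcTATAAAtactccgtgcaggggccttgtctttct
Hist1h1c, chr13:23738657-23738806, plus strand: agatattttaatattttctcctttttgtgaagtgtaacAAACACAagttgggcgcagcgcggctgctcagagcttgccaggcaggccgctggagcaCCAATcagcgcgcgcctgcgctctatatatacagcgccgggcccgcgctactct

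RefSeq promoters, from 250 bases before to 50 after the start, were matched for 52 of the 57 names, with 53 promoters in all. CCAAT stood in 45 of the 53, against 37.4% of all RefSeq promoters. Every H1, H2A, H2B and H3 promoter held it (6, 11, 16 and 9), and 3 of 11 H4 promoters did. The octamer stood in 5 of 11 H2A and 6 of 16 H2B promoters and in 0 of the other 26, against 1.74% of all. TATAAA stood in 30 of 53, against 13.6% of all. The H1 box stood in 5 of 6 H1, 2 of 11 H2A and 2 of 16 H2B promoters, against 7.18% of all, and in 0 H3 or H4 promoters. The H1 promoter without the H1 box was that of Hist1h1a. No motif overlapped another in the 3 stretches shown.

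Gene reads per sample summed to 1987266 to 2928236 for the 129 and 2465073 to 3321753 for the Cast tables. Levels are counts scaled to 1000000 gene reads of the same table (CPM). The markers of B cells were all present in both groups. All 7, Fcer2a (CD23) among them, were called lower by edgeR in both strains' tables, against 27% (129) and 31.5% (Cast) of all genes. A list of 12 macrophage markers summed to 2552 to 6316 CPM in the naive samples and 23.2 to 36.4 CPM in the stimulated samples. In the stimulated samples 1 of these 12 genes on the 129 allele and 2 on the Cast allele had 0 reads. T cell, erythroid and granulocyte markers each summed to at most 111 CPM in a naive sample and at most 1.42 CPM in a stimulated sample. The part of these other cells in the results below was not tested.

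Histone reads were more abundant on both alleles after stimulation. Summed over members, they made up 0.210%, 0.193% and 0.263% of the 129 gene reads in naive replicates 1 to 3 and 1.60%, 2.96% and 1.60% in the stimulated ones. The group means were 0.222% ± 0.0364 and 2.05% ± 0.788 (SD, n = 3), a ratio of 9.25. Of the Cast gene reads they made up 0.356% ± 0.0908 before and 1.90% ± 0.730 after (SD, n = 3), a ratio of 5.34. The groups did not overlap on either allele. In bulk RNA, more cells that express a gene and more RNA per cell cannot be told apart.

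Enough reads for a test were present on the 129 allele for 24 of 47 members, and 20 were called higher, against 28.2% of all genes tested in those tables (edgeR's quasi-likelihood test, adjusted p under 0.05 over all genes). None was called lower, where 27% of all genes were. On the Cast allele 30 of 45 could be tested, and 26 were called higher, against 30.7% of all genes, and 1 lower, against 31.5%. Over both directions, 55.2% of all genes were called for the 129 allele and 62.2% for the Cast allele. The groups did not overlap for 20 members on the 129 allele, each higher, against 31.9% of all genes higher and 64.8% in either direction. For Cast reads they did not overlap for 28 members, 27 of them higher, against 34.1% higher and 67.9% in either direction. The filter asks for enough reads in 3 samples, so some members could be tested through their stimulated samples alone, which favours a rise. Cast Hist2h3c1 had 0, 3 and 0 reads in naive and 52, 60 and 39 in stimulated replicates 1 to 3. For 129 Hist1h4k these were 2, 2 and 3 and then 20, 44 and 22. Such members are in these counts and in the medians and large rises below. All genes passed the same filter.

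The members' median log2 fold change was 3.37 for the 129 allele, where that of all genes tested was -0.01. For the Cast allele it was 2.96, where that of all genes was -0.04. Rises of at least 3 on the log2 scale were called for 16 members on the 129 allele, against 3.39% of all genes, and for 15 on the Cast allele, against 3.44%.

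The members that were not tested held 0.170% of member reads on the 129 allele and 0.0444% on the Cast allele. Of these 23 and 15 genes, 12 and 7 had 0 reads in every sample. Pooled by class, the untested 129 members reached at most 11.2 CPM ± 2.04 in stimulated cells, for 6 H2A genes, and the untested Cast members at most 4.07 CPM ± 4.41, for 2 H1 genes (SD, n = 3). Some members are near-copies of other genes. Among 129 members with 0 reads a median of 52.4% of the 50-base stretches of the GRCm38 transcript also stood in another gene, and among Cast members with 0 reads it was 88.5%. For the tested members the medians were 40.2% and 38.8%. How reads of such copies were counted is not stated, so values of single members are uncertain where copies share sequence.

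**Figure D1:**
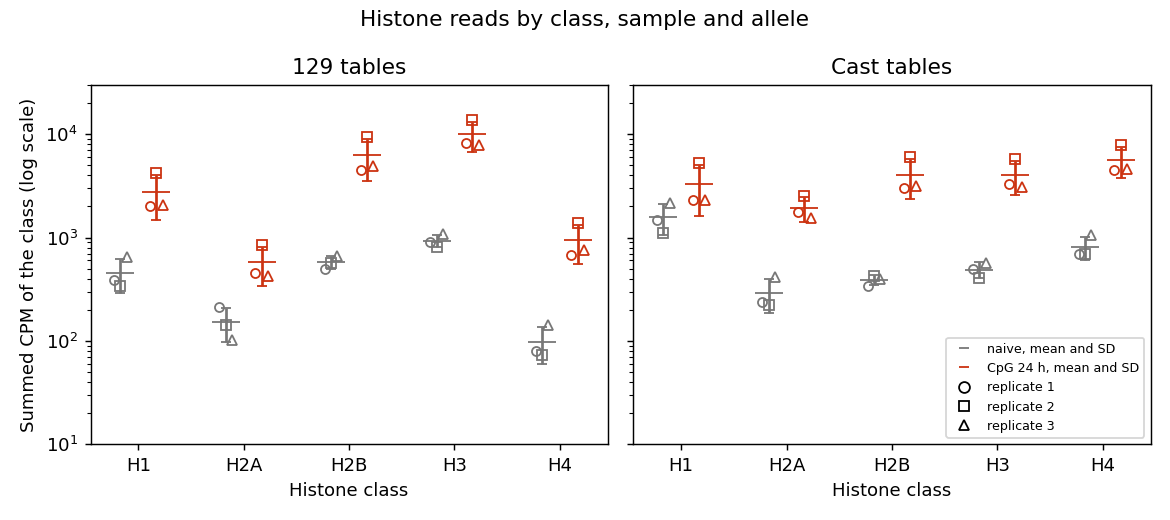
Summed CPM of each histone class (log scale) in the 129 and Cast tables, by sample, with the mean and SD of each group (n = 3). In each class and table the 3 stimulated samples lie above the 3 naive samples, and stimulated replicate 2 is the highest.

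By class, the pooled ratios were largest for H2B, H3 and H4 on the 129 allele, where the stimulated to naive ratios of mean CPM were 10.9, 10.6 and 9.59. The ratios for H1 and H2A there were 6.06 and 3.78. The direction for H2A rested on Hist1h2ab, since over the members matched between the strains, which do not include it, the ratio was 0.911. Those of the Cast allele were 10.5 for H2B, 8.27 for H3, 6.98 for H4, 6.64 for H2A and 2.09 for H1. Hist1h1c held most naive Cast H1 reads, and without it the Cast H1 ratio was 9.17. Without Hist1h3a the Cast H3 ratio was 16.6, above that of H2B. The order of the classes was not tested. The groups did not overlap in any class or table, and the closest were H1 on the Cast allele, where the lowest stimulated sample was 1.07 times the highest naive sample.

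Stimulated replicate 2 stood apart from the other libraries of its group. Its members' levels were a median of 1.99 times the mean of stimulated replicates 1 and 3 on the 129 allele and 1.79 times on the Cast allele, and it was the highest stimulated sample for 23 of 24 and 27 of 30 tested members. The summed level of 14 S phase genes such as Mcm2 and Mcm3 was not raised there: on the 129 allele it was 5496 CPM in replicate 2, 5871 in replicate 1 and 4899 in replicate 3. The Cast sums were 5911, 5878 and 7786 CPM in the same order. Replicate 3 differed in both sums at Mcm6, another helicase gene of the list, with 149 reads on the 129 allele against 2830 and 2992 in the other stimulated samples, and 7106 on the Cast allele against 3178 and 3181. Reads outside annotated genes made up 48.1% of aligned reads in this 129 library and 52.8% and 56.7% in the other 2. Without it, the ratio for all members was 7.20 on the 129 allele and 4.15 on the Cast allele, and that for Cast H1 was 1.47.

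The linker histones, which bind the DNA between nucleosomes, divided into genes that rose strongly and genes that did not. Hist1h1a was at 48.3, 58.5 and 53.8 CPM in naive replicates 1 to 3 of the 129 tables and at 1121, 2190 and 1081 CPM in the stimulated ones. The log2 fold change was 4.80 (SE 0.35, adjusted p = 6.87e-05 by edgeR). Cast reads of the gene rose by 5.20 (SE 0.45, adjusted p = 1.18e-05 by edgeR), from 17.5, 48.2 and 23.9 CPM to 791, 1691 and 828 CPM. Every stimulated sample was far above every naive sample on both alleles.

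Hist1h1b rose by 3.94 on the log2 scale on the 129 allele (SE 0.41, adjusted p = 3.74e-04 by edgeR) and by 3.76 on the Cast allele (SE 0.33, adjusted p = 1.29e-05 by edgeR). Hist1h1e rose less. On the Cast allele it went from 149, 106 and 175 CPM to 251, 551 and 249 CPM, with an estimated log2 fold change of 1.26 ± 0.34 (SE, adjusted p = 0.00997 by edgeR). On the 129 allele it went from 215, 167 and 342 CPM to 396, 915 and 420 CPM, with an estimated log2 fold change of 1.29 ± 0.44 (SE, adjusted p = 0.0485 by edgeR).

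These Hist1h1e calls were weak. With the replicate number as a block the edgeR adjusted p was 0.185 on the Cast allele and 0.222 on the 129 allele. In the 129 tables the call was also lost without naive replicate 1 (adjusted p = 0.129 by edgeR), naive replicate 2 (0.138) or stimulated replicate 2 (0.0949), the last with a log2 fold change of 0.76. Hist1h1d, named after its values were seen, was called on the 129 allele at 2.21 (SE 0.57, adjusted p = 0.0189 by edgeR). It lost the call with the block (adjusted p = 0.108 by edgeR) and without naive replicate 1 (0.0674) or 2 (0.0748). In the Cast tables Hist1h1d had 4 reads or fewer in a sample.

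Hist1h1c, the H1 gene with the most reads over all tables, did not pass the test. On the Cast allele it was at 1292, 928 and 1914 CPM in naive and 955, 2403 and 923 CPM in stimulated replicates 1 to 3, with an estimated log2 fold change of 0.02 ± 0.41 (SE, adjusted p = 0.964 by edgeR). On the 129 allele it was at 79.3, 60.6 and 161 CPM and then at 52.3, 159 and 61.3 CPM, with an estimated log2 fold change of -0.10 ± 0.58 (SE, adjusted p = 0.892 by edgeR). The groups overlapped on both alleles. Without stimulated replicate 2 the log2 fold change was -0.59 on the Cast allele and -0.82 on the 129 allele, and neither passed (adjusted p = 0.156 and 0.191 by edgeR).

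The make-up of H1 reads therefore differed between the groups. These are shares of reads, with no correction for length. On the Cast allele Hist1h1a held 2.21% ± 1.85 of H1 reads before and 34.0% ± 1.88 after stimulation, and Hist1h1c went from 86.5% ± 2.54 to 42.2% ± 3.04 (SD, n = 3). In the 129 tables Hist1h1a went from 12.7% ± 4.52 to 53.4% ± 2.24, Hist1h1e from 52.6% ± 2.75 to 20.6% ± 0.886, and Hist1h1c from 21.1% ± 3.51 to 3.11% ± 0.573 (SD, n = 3). The groups did not overlap for any of these shares, and no test was made on them.

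**Figure D2:**
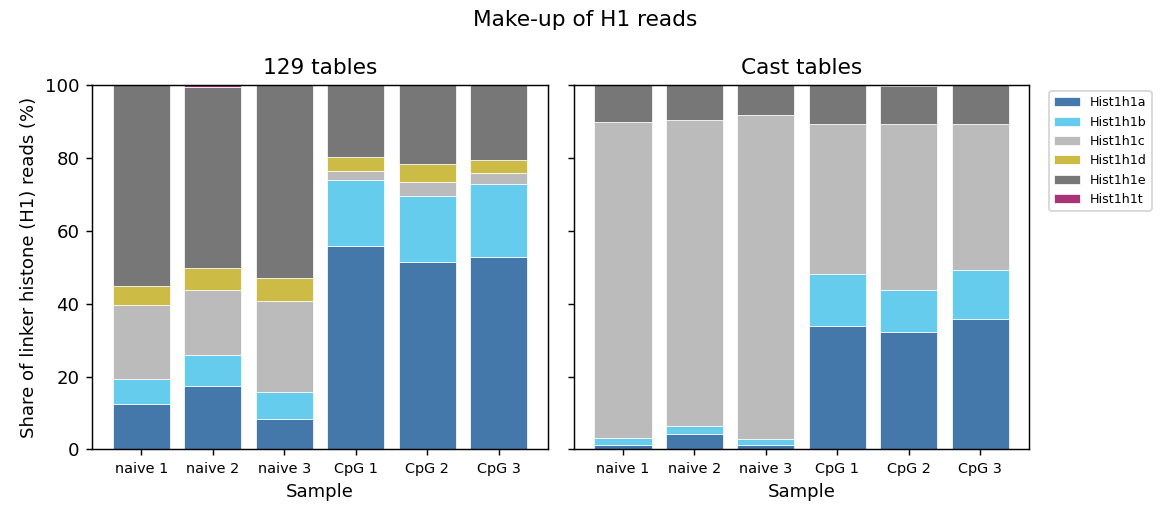
Share of linker histone reads held by each H1 gene (%), per sample, in the 129 and Cast tables. Hist1h1a grows from 12.7% to 53.4% of H1 reads on average in the 129 tables and from 2.21% to 34.0% in the Cast tables. The 3 stimulated samples have like make-ups, replicate 2 included. In the naive samples the Hist1h1a share ranges from 8.35% to 17.4% in the 129 tables and from 1.11% to 4.35% in the Cast tables.

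The H2A genes, core histones of the nucleosome that pair with H2B, were few on the 129 allele. There 2 of 8 were tested and 1 was called higher, against 28.2% of all genes. Hist1h2ab went there from 32.2, 37.9 and 45.8 CPM to 376, 681 and 358 CPM, with no overlap and an estimated log2 fold change of 3.64 ± 0.32 (SE, adjusted p = 1.43e-04 by edgeR). The Cast tables have no gene of that name. In them 6 of 8 H2A genes were tested, 5 were called higher and 1 lower, where 30.7% and 31.5% of all genes were. Hist1h2ae went from 45.3, 60.7 and 78.3 CPM to 734, 1027 and 610 CPM, with an estimated log2 fold change of 3.66 ± 0.28 (SE, adjusted p = 5.83e-06 by edgeR).

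Hist1h2aa, a name given in the mouse to a testis H2A gene, went from 95.5, 85.9 and 112 CPM to 919, 1307 and 781 CPM on the Cast allele. Its log2 fold change was 3.33 (SE 0.24, adjusted p = 4.39e-06 by edgeR). In the 129 tables the row of that name had 0 reads in every sample. Names are as each strain's annotation gives them, and whether these rows hold the same gene was not tested.

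Hist3h2a, on chromosome 11, was the 1 member called lower, on 1 allele. Its Cast reads were at 82.5, 60.7 and 199 CPM in naive and 11.9, 17.2 and 19.3 CPM in stimulated replicates 1 to 3, with no overlap. The log2 fold change was -2.86 (SE 0.46, adjusted p = 5.33e-04 by edgeR). On the 129 allele it was at 175, 105 and 44.3 CPM and then at 71.8, 154 and 51.5 CPM, the groups overlapped, and the log2 fold change of -0.20 did not pass (SE 0.63, adjusted p = 0.812 by edgeR).

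Replicate 3 stood apart at this locus in both groups, as it did at Mcm6. The labels give these samples the same F1 genotype as the others, and the reason for the difference was not tested. The median Cast share of reads over the 10 nearest genes that had 20 or more reads in each sample was 81.0% in naive replicate 3 and 66.2% in stimulated replicate 3. In the other 4 samples it was between 46.8% and 52.2%. Around Hist1h1b, Hist1h1c and Hist2h4, on chromosomes 13 and 3, the same median was between 44.4% and 56.2% in every sample. With replicate 3 of both groups left out, a choice made after seeing the data, the log2 fold change of Hist3h2a was -2.27 on the Cast allele (SE 0.30, adjusted p = 6.54e-04 by edgeR) and -0.27 on the 129 allele (SE 0.48, adjusted p = 0.689 by edgeR). Trim17, which the GRCm38 annotation places over Hist3h2a on the same strand, had at most 1 read in any of the tables. Whether reads over both genes reached either count was not tested.

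All 7 tested H2B genes were called higher on the 129 allele and 5 of 6 on the Cast allele, against 28.2% and 30.7% of all genes. Hist1h2bb had the most reads of all members. It went from 306, 383 and 407 CPM to 3003, 6570 and 3291 CPM on the 129 allele, with an estimated log2 fold change of 3.58 ± 0.36 (SE, adjusted p = 2.78e-04 by edgeR). Cast reads of the gene rose by 3.73 (SE 0.35, adjusted p = 2.02e-05 by edgeR), from 146, 250 and 174 CPM to 1788, 3893 and 1909 CPM. The samples did not overlap on either allele.

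Hist1h2bc, with 3 to 56 reads per sample on the 129 allele and 377 to 5171 on the Cast allele, rose by 3.15 and by 2.87 on the log2 scale (SE 0.39 and 0.25, adjusted p = 4.10e-04 and 1.16e-05 by edgeR). Hist1h2bl, a name of the 129 tables only, went from 81.4, 70.7 and 87.1 CPM to 703, 1216 and 776 CPM. Its log2 fold change was 3.52 (SE 0.25, adjusted p = 4.03e-05 by edgeR). Apart from Hist1h2be, the other H2B genes called higher had log2 fold changes between 2.86 and 4.41.

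Hist1h2be rose on the 129 allele and did not pass on the Cast allele. On the 129 allele it went from 62.3, 55.6 and 97.1 CPM to 344, 692 and 358 CPM, with an estimated log2 fold change of 2.73 ± 0.38 (SE, adjusted p = 0.00125 by edgeR). On the Cast allele it was at 24.9, 22.6 and 37.7 CPM and then at 28.5, 55.1 and 26.2 CPM, with overlapping groups and an estimated log2 fold change of 0.35 ± 0.34 (SE, adjusted p = 0.402 by edgeR). Its test against the other allele is given with the allele ratios.

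The H3 genes, core histones whose tails carry many of the chromatin marks, were all called higher: 4 of 4 tested on the 129 allele and 6 of 6 on the Cast allele. Of all genes tested, 28.2% and 30.7% were called higher. Hist1h3a went from 488, 359 and 564 CPM to 3388, 5055 and 3105 CPM on the 129 allele, with an estimated log2 fold change of 3.06 ± 0.27 (SE, adjusted p = 1.05e-04 by edgeR). Its Cast reads went from 397, 296 and 486 CPM to 1916, 3524 and 1880 CPM, with an estimated log2 fold change of 2.61 ± 0.31 (SE, adjusted p = 8.54e-05 by edgeR). The Cast tables place Hist1h3a and Hist1h1a on chromosome 3 and the 129 tables place both on chromosome 13, so neither entered the allele ratios.

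Hist1h3g and Hist1h3c are names of the 129 tables only. Hist1h3g went from 206, 184 and 206 CPM to 2376, 3972 and 2315 CPM, with an estimated log2 fold change of 3.89 ± 0.26 (SE, adjusted p = 2.98e-05 by edgeR). Hist1h3c rose by 3.27 (SE 0.31, adjusted p = 1.96e-04 by edgeR). Hist2h3c2, a name of the Cast tables only, went from 53.5, 64.1 and 38.5 CPM to 933, 1307 and 760 CPM, with an estimated log2 fold change of 4.25 ± 0.26 (SE, adjusted p = 2.13e-06 by edgeR). No stimulated sample overlapped a naive one for these genes.

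Of the H4 genes, which encode the core histone that pairs with H3, 4 of 6 tested were called higher on the 129 allele and 7 of 8 on the Cast allele. The shares of all genes called higher were 28.2% and 30.7%. Hist1h4j went from 213, 168 and 315 CPM to 1367, 2257 and 1381 CPM on the Cast allele, with an estimated log2 fold change of 2.81 ± 0.31 (SE, adjusted p = 5.04e-05 by edgeR). On the 129 allele it went from 8.90, 8.42 and 21.1 CPM to 130, 308 and 151 CPM, with an estimated log2 fold change of 3.98 ± 0.54 (SE, adjusted p = 0.00126 by edgeR). Hist2h4 was at 172, 204 and 310 CPM and then at 1103, 2062 and 1275 CPM on the Cast allele, with an estimated log2 fold change of 2.67 ± 0.31 (SE, adjusted p = 7.84e-05 by edgeR), and had at most 13 reads in a 129 sample.

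Hist1h4b rose by 3.79 on the 129 allele (SE 0.37, adjusted p = 2.72e-04 by edgeR) and by 3.15 on the Cast allele (SE 0.31, adjusted p = 2.45e-05 by edgeR). The gene that GRCm38 places over it on the opposite strand, 4930558J22Rik, had at most 16 reads in a sample. Whether reads over both genes reached either count was not tested. Hist1h4k rose by 3.22 on the 129 allele (SE 0.54, adjusted p = 0.00179 by edgeR), on 2 to 44 reads per sample, and by 3.04 on the Cast allele (SE 0.24, adjusted p = 7.93e-06 by edgeR). The strand setting of the counting is not given in the sources used here.

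The H4 genes that did not pass, named after their values were seen, were Hist1h4i on both alleles and Hist1h4c on the 129 allele. Hist1h4i had log2 fold changes of 0.41 on the 129 allele (SE 0.46, adjusted p = 0.475 by edgeR) and 0.76 on the Cast allele (SE 0.31, adjusted p = 0.0584 by edgeR). Without stimulated replicate 2 its Cast value was 0.93 and passed (adjusted p = 0.0364 by edgeR). Hist1h4c had 0.50 on the 129 allele (SE 0.43, adjusted p = 0.360 by edgeR) and was called on the Cast allele at 1.44 (SE 0.37, adjusted p = 0.00810 by edgeR). With the replicate block the Cast call of Hist1h4c was lost (adjusted p = 0.0649 by edgeR).

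**Figure D3:**
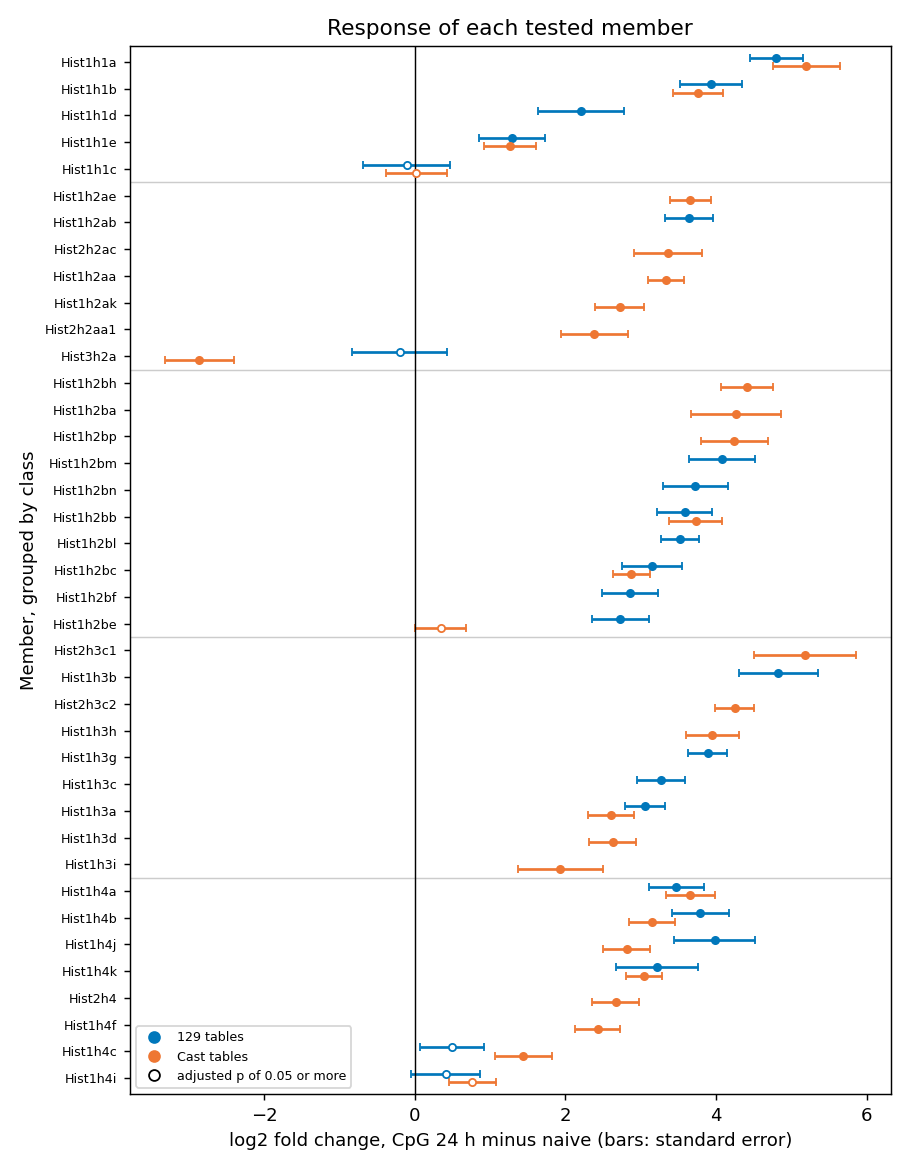
Log2 fold change (stimulated minus naive) with its standard error for each tested member in the 129 and Cast tables, by class. Open points had an adjusted p of 0.05 or more in edgeR. Most members lie between 2 and 5, Hist1h1c and 129 Hist3h2a lie near 0, and Cast Hist3h2a lies at -2.86.

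Among members with a stem-loop, those with a log2 fold change under 2 had in common a GRCm38 gene model that runs on past it. The longest annotated end of each gene was taken. The counts were made on the strains' own annotations, whose ends were not examined. The limit of 300 annotated bases after the stem-loop was chosen after the values were seen, so the split is a description. With fewer bases, all 10 tested members in the 129 tables and all 9 in the Cast tables were called higher, with log2 fold changes of at least 2.86 and 2.39. With more, 4 of 8 were called higher in the 129 tables, and 8 of 12 were called higher and 1 lower in the Cast tables. Their median log2 fold changes were 0.89 and 2.04, against 3.61 and 3.36 for the members with fewer bases.

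Hist1h1c has 840 annotated bases after its stem-loop, Hist1h1e 1153, Hist3h2a 1643, Hist1h4c 454 and Hist1h4i 330. Some members with long ends rose strongly, as did Hist1h4j with 385 bases, Hist2h4 with 1257 and Hist2h3c2 with 377. The largest Cast rises among members with a stem-loop were also of genes with long ends, named after their values were seen. Hist2h3c1 with 1167 bases had a log2 fold change of 5.18, on at most 3 reads in a naive sample. Hist1h2bh with 1214 had 4.41, where members with fewer bases reached at most 4.24. Hist1h2be, with 1861 bases, had 2.73 on the 129 allele and 0.35 on the Cast allele. Across tested members with a stem-loop, Spearman's rho between these bases and the log2 fold change was -0.61 over 18 members in the 129 tables and -0.26 over 21 in the Cast tables. Those points share libraries, and some share sequence. The tested members with no stem-loop found, 6 and 9, were all called higher.

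**Figure D4:**
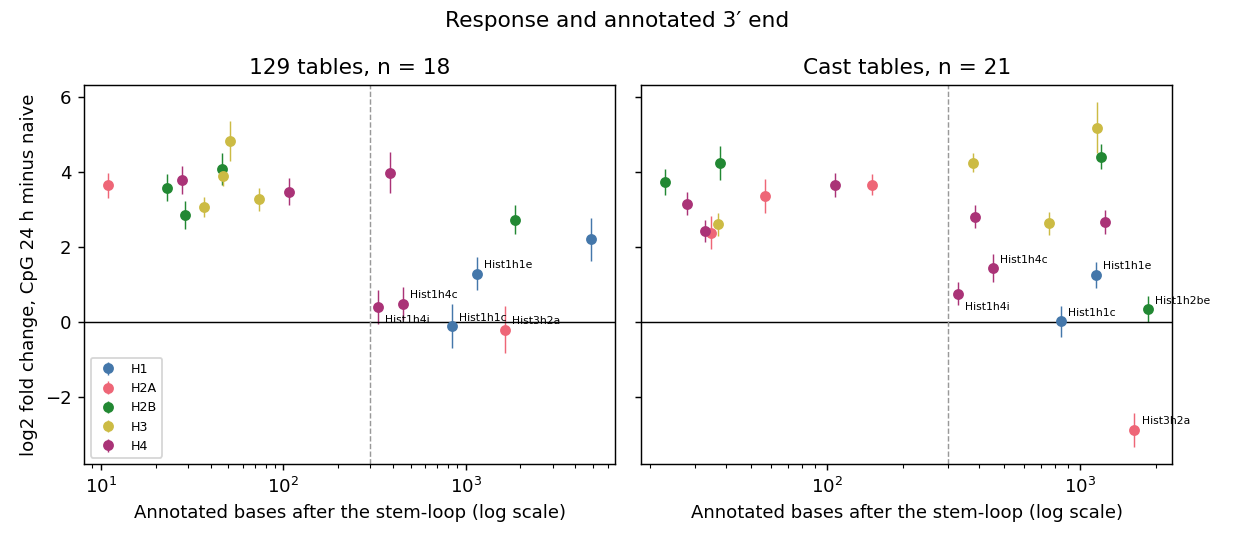
Log2 fold change (stimulated minus naive, bars are standard errors) against the annotated bases after the stem-loop (log scale) for tested members with a stem-loop, 18 in the 129 and 21 in the Cast tables. The bases are those of the GRCm38 annotation, not of the strain annotations used for counting. Members left of the dashed line at 300 bases lie at 2.39 or above, and every member under 2, named in the plot, lies to the right of it.

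Other genes that serve histone supply were measured in the same tables. Of 15 genes for histone mRNA making and decay, 14 were tested on the 129 allele and 9 were called higher, against 28.2% of all genes. On the Cast allele 13 were tested and 7 were called higher, against 30.7% of all genes. On either allele 0 were called lower, where 27% (129) and 31.5% (Cast) of all genes were. The list's median log2 fold changes were 1.21 and 0.93. Slbp, which encodes the stem-loop binding protein, rose from 113 ± 11.6 to 277 ± 38.5 CPM on the 129 allele (SD, n = 3), a log2 fold change of 1.32 (adjusted p = 1.98e-04 by edgeR), and by 1.74 on the Cast allele (adjusted p = 3.87e-06 by edgeR). Eri1, an exonuclease that acts on the stem-loop end, rose by 1.29 and 1.15 (adjusted p = 0.00704 and 2.87e-05 by edgeR). Cpsf2, a subunit of the 3′ end cutting complex, rose by 0.48 and 0.93 (adjusted p = 0.0174 and 1.26e-04 by edgeR).

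Histone chaperones carry histones to DNA. Of 12 tested in each strain's tables, 8 were called higher on the 129 allele and 9 on the Cast allele, with 0 lower in either. Of all genes, 28.2% and 30.7% were called higher, and 27% and 31.5% lower. Nasp, a chaperone of H1 and H3, rose by 2.78 and 2.49 (adjusted p = 1.65e-05 and 8.92e-07 by edgeR). Supt16, a subunit of FACT, rose by 1.75 and 1.68 (adjusted p = 1.98e-05 and 2.73e-05 by edgeR). Rbbp4, which is shared by several chromatin complexes, had 0.89 on the 129 allele (adjusted p = 0.0748 by edgeR) and rose by 0.81 on the Cast allele (adjusted p = 0.00642 by edgeR).

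Replication-independent variants are made outside S phase too. Of 8 tested, 4 were called higher and 1 lower on the 129 allele, where 28.2% and 27% of all genes were. On the Cast allele 3 were called higher and 2 lower, shares near the 30.7% and 31.5% of all genes. H2afz, an H2A variant, rose by 3.02 and 2.62 (adjusted p = 1.92e-05 and 2.53e-05 by edgeR). H2afy, the macroH2A gene, rose by 0.40 on the 129 allele (adjusted p = 0.0397 by edgeR) and had 0.16 on the Cast allele (adjusted p = 0.268 by edgeR). H3f3b, an H3.3 gene, had -0.44 on the 129 allele (adjusted p = 0.167 by edgeR) and fell by 1.02 on the Cast allele (adjusted p = 0.00574 by edgeR).

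Among S phase genes 12 of 14 tested were called higher on the 129 allele and 13 of 14 on the Cast allele, against 28.2% and 30.7% of all genes. None of the list was called lower, where 27% and 31.5% of all genes were. The list's median log2 fold changes were 3.62 and 3.34. Mcm2 and Mcm3, subunits of the replicative helicase, rose by 3.25 and 3.64 on the 129 allele and by 3.54 and 3.29 on the Cast allele (edgeR adjusted p at most 1.10e-05). Mcm6 had 149, 157 and 9 reads in naive and 2992, 2830 and 149 in stimulated replicates 1 to 3 on the 129 allele, with replicate 3 far below the others in both groups. Its log2 fold change there was 3.98 and did not pass (SE 1.42, adjusted p = 0.0613 by edgeR), though each stimulated sample was above the naive sample of its number. Cast reads of Mcm6 rose by 3.39 (adjusted p = 3.85e-05 by edgeR).

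The alleles were compared for the 33 members whose name and chromosome matched between the tables. The Cast share is Cast reads over the sum of both alleles' reads. Pooled over these members, with 95% Wilson intervals in brackets, naive replicates 1 to 3 had 76.0% (75.1 to 76.9), 74.6% (73.7 to 75.5) and 78.9% (78.2 to 79.7). The stimulated ones had 68.9% (68.4 to 69.3), 66.2% (65.9 to 66.5) and 68.3% (67.8 to 68.7), all below every naive sample. Intervals cover counting error only. The group means were 76.5% ± 2.21 and 67.8% ± 1.40 (SD, n = 3), against 52.7% ± 0.777 and 52.7% ± 0.810 over other autosomal genes. Without Hist1h2bb the fall of 8.74 points was 1.47 points, so most of it went with that 1 gene, whose own share was 37.4% ± 4.42 and then 40.1% ± 0.274.

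By class, the pooled Cast share of H1 went from 82.0% ± 0.958 to 65.4% ± 1.16, and that of H4 from 90.9% ± 0.687 to 87.4% ± 0.725 (SD, n = 3). The H1 value moved with the make-up of the sum: Hist1h1c, at 94.4% ± 0.638 and 94.8% ± 0.438, held a smaller part of H1 reads after stimulation, and the shares of Hist1h1b and Hist1h1e moved by less than 3 points. For H2B it was 50.9% ± 1.67 and 49.3% ± 0.756. For H2A it was 68.4% ± 18.5 and 92.7% ± 1.88, with the wide naive spread of a sum to which Hist3h2a belongs. H3 has 1 matched gene, with too few reads for a share.

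Single members were mostly far from an even split. Of 22 tested, 17 were called unequal in naive samples, 13 toward Cast and 4 toward 129, against 24.2% of 10089 autosomal genes (edgeR, adjusted p under 0.05). In stimulated samples 18 were called, 14 toward Cast and 4 toward 129, against 24.5%. Among the 18 members with at least 10 reads in every sample, 6 had a Cast share above 90% in all 6 samples, Hist1h1c, Hist1h2aa, Hist1h2bc, Hist1h4f, Hist1h4k and Hist2h4. Hist1h1d had a share under 2% in every sample.

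These shares compare rows of 2 annotations, and whether near-copies were counted alike in both was not tested. Hist1h1b was near an even split, at 51.1% ± 3.15 before and 48.2% ± 2.22 after stimulation (SD, n = 3), and was not called in either group. Hist1h1e was at 41.7% ± 2.70 and 40.9% ± 0.337.

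The ratio itself changed with stimulation for 2 of the 22 members, against 1.01% of autosomal genes. The Cast share of Hist1h2be was 31.3% (25.5 to 37.8), 31.6% (25.5 to 38.5) and 32.5% (27.4 to 38.1) in naive and 8.42%, 8.28% and 7.84% in stimulated replicates 1 to 3. The log2 change of the Cast to 129 ratio was -2.39 (SE 0.11, adjusted p = 3.58e-04 by edgeR), lower in 3 of 3 stimulated samples. Without each sample in turn it stayed called, with adjusted p from 0.00360 to 0.00746. The GRCm38 annotation places Hist1h1e over Hist1h2be on the same strand. The Hist1h1e share did not pass the same test, with a log2 change of -0.05 (SE 0.10, adjusted p = 0.992 by edgeR). How reads over both genes were counted is not stated, and their part in the Hist1h2be ratio was not tested.

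Hist1h4j went from a Cast share of 95.7% ± 0.801 to 90.9% ± 1.49 (SD, n = 3), with no overlap. Its log2 change of -1.14 was called (SE 0.18, adjusted p = 0.0465 by edgeR), and without any 1 sample it was not, with adjusted p from 0.0795 to 0.172. With the replicate block, which the pairing of the samples allows, 5 members were called: Hist1h2be, Hist1h4j, Hist3h2a, Hist1h4b and Hist1h4c. The blocked log2 changes were -2.39, -1.10, -2.58, -0.66 and 0.92, and the edgeR adjusted p of the last 3 were 5.40e-04, 5.22e-05 and 0.0199. The share of all autosomal genes called with the block was not computed, so the count of 5 has no background to be set against.

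Hist3h2a had Cast shares of 35.0% (31.4 to 38.8), 39.7% (35.1 to 44.5) and 84.8% (81.6 to 87.5) in naive and 15.5%, 11.2% and 30.3% in stimulated replicates 1 to 3. Replicate 3 was the highest in each group, at the locus where its neighbours had high Cast shares as well. Each stimulated sample was lower than the naive sample of its number. With replicate 3 of both groups left out the log2 change of the ratio was -1.98 (SE 0.25, adjusted p = 0.118 by edgeR).

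**Figure D5:**
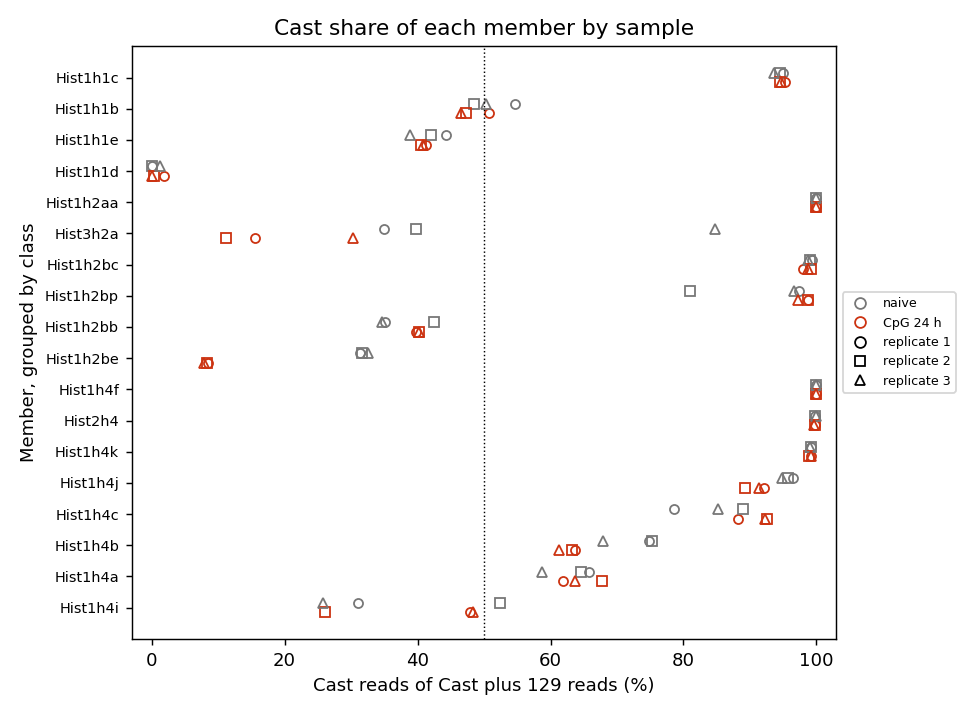
Cast share of reads (%) for the 18 matched members with at least 10 reads in every sample, by sample, with a dotted line at 50%. Hist1h2be moves from near 32% to near 8%, replicate 3 of Hist3h2a lies apart in both groups, and 6 members lie above 90% in every sample.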

How the data were processed

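Read counts per gene were deposited by the authors as whole numbers, 1 table per sample for the 129S1/SvImJ and 1 for the CAST/EiJ annotation. The submitters' processing notes name STAR, featureCounts, Subread 2.0.0 and mm10, with no role or order. How a read was given to a strain is not given in the sources used here. The 12 other samples of the series are not analysed here.

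From the counts, each strain's tables were fitted whole with edgeR 4.0.16 in R 4.3.3 (quasi-likelihood test, TMM, filterByExpr, Benjamini-Hochberg at 0.05). The allele ratio was tested in autosomal genes where the alleles' reads summed to 10 or more in 3 samples, with a term per sample. Standard errors come from the F statistic. Fits were tested on simulated data. Members, lists and the rule for named genes (the 4 with most reads in each class, those called lower, and those whose allele ratio changed) were chosen with earlier results of these data known.

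Same-numbered samples deviated together (correlations of 0.566, 0.446 and 0.612 in the 129 tables and 0.238, 0.168 and 0.254 in the Cast tables), so the title numbers were taken to pair them. The main fits did not use this pairing, which entered the tests only as the replicate block. Chi-square over its degrees of freedom was 5.96 to 15.7 between libraries of a group, so none counted as a duplicate. Alternatives were DESeq2 1.42.0, other scaling, no filter, a minimum fold, the block and leaving out samples.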

Additional observations from a re-analysis of the deposited data

Results flagged for a closer look

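The response to stimulation differed between the rows of the 2 alleles, by a test of the Cast to 129 ratio, for Hist1h2be and Hist1h4j. These rows come from 2 annotations, and whether rows of 1 name hold the same gene and exons was not tested. For Hist1h2be the log2 change of the ratio was -2.39 (edgeR adjusted p = 3.58e-04), with a rise called on the 129 allele and none called on the Cast allele. For Hist1h4j the log2 change was -1.14 (edgeR adjusted p = 0.0465), with a rise called on both alleles and the larger estimate on the 129 allele. The Hist1h4j call was lost in 8 alternatives, with adjusted p from 0.0618 to 0.193 (edgeR): without any 1 sample, with each allele scaled by its own total, and with replicate 3 of both groups left out.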

How the results depend on the processing

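Calls of higher members ranged from 18 to 23 in the 129 tables and 23 to 27 in the Cast tables over the alternatives run on each table alone. Leaving out 1 sample gave 19 to 23 and 27 to 28 calls in either direction, 16 to 17 and 17 to 19 unequal members in naive and stimulated samples, and 1 to 1 changed ratio. With the replicate block there were 18 and 25 such calls, 19 and 20 unequal members against 17 and 18, and 5 changed ratios against 2. The shares of all genes called with the block were not computed. The block ended 4 of the members' response calls, those given above for Hist1h1d, Hist1h1e on both alleles and Cast Hist1h4c. Scaling each allele by its own total gave 1 changed ratio, as did leaving out replicate 3 of both groups, a choice made after seeing the data. Without the member with most reads, the Cast fold was 9.17 for H1 and 16.6 for H3, and the Cast share fell by 1.47 points. The median of the members' own shares fell by 2.58 points. Over matched members alone the 129 H2A ratio reversed to 0.911, because Hist1h2ab is not among them, and the 129 H1 ratio was 3.23, without Hist1h1a. No such value was possible for H3, whose 1 matched gene had too few reads. Leaving out 1 sample gave folds for all members of 7.20 to 10.3 (129) and 4.15 to 6.23 (Cast), and falls of the Cast share of -7.53 to -9.69 points. Of 56 results on single members, 46 kept their call under every alternative run.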
